A study of Homo sapiens with 68 samples.

Results

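The comparison set 2 libraries of hnRNPI prepared without ultraviolet crosslinking and without gel purification (noUV_noPAGE_hnRNPI) against 2 libraries of the same protein prepared with crosslinking and without gel (hnRNPI_50k_noPAGE). These 4 libraries were taken by their titles from the 68 of the series, which profiles RNA-binding proteins by TLC-CLIP, an immunoprecipitation method that sequences the RNA fragments held by a protein. Both groups used the human embryonic kidney line HEK293T, with 50000 cells and 0.005 U of RNase on the labels and the SH54 antibody against hnRNPI. No transgene, knockout or drug is named for them. The absence of crosslinking rests on the titles and the series design, because the treatment text shared by all samples describes UV-C light. Nothing says whether the 2 replicates of a group were separate cultures, so p-values measure the spread between these samples, which may be technical. The libraries without crosslinking also have accessions in a run apart from the crosslinked ones. If that run marks a preparation batch, batch and crosslinking cannot be told apart. The other libraries used below are divided in the same way.

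hnRNPI, also known as polypyrimidine tract-binding protein (PTB), binds pyrimidine-rich stretches of RNA, many of them in introns, and is best known as a repressor of alternative exons. UV light joins a protein to RNA that it touches, and the bond lets harsh washes and a denaturing gel remove RNA that is merely carried along. A library without UV therefore records the RNA that stays with the beads, the antibody or the protein without such a bond, and omitting the gel leaves out the step that would separate free RNA from the complex.

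The measurements were lists of peaks, each with the position, strand, an Ensembl gene identifier, a p-value and a number in its name that was read here as the reads over the peak. The sequenced depth of the libraries is unknown. A site or gene that is not listed was not called a peak and is not shown to have no reads. The files do not pair the identifiers with gene names, so apart from 4 identifiers genes are described by the hg19 position of their strongest cluster. Exons, introns and UTRs are not annotated here, and no sequence is printed for the sites.

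Fewer peaks and fewer genes were listed for hnRNPI without crosslinking. The crosslinked libraries listed 353415 and 341973 peaks, and those without crosslinking listed 44086 and 78945. Both values without crosslinking were below both crosslinked values, and replicate 2 without crosslinking had the longer list of its group. The mean log2 peak number was 15.85 ± 0.59 (SD, n = 2) without crosslinking and 18.41 ± 0.03 (SD, n = 2) with it, a 5.89-fold difference. The number of genes differed less. The crosslinked lists named 14231 and 14105 genes and the lists without crosslinking named 7297 and 9498, a 1.70-fold difference with no overlap. With 2 libraries against 2, the exact two-sided permutation p was 0.333 for each of these values, the smallest that the design allows.

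The listed reads were also more concentrated. The 10 genes with the most reads held 3.70% and 3.54% of all listed reads with crosslinking, and 14.3% and 12.2% without it. The mitochondrial genome, which encodes its own ribosomal, transfer and messenger RNAs, held 1.11% and 0.948% of listed reads with crosslinking. Without crosslinking it held 6.27% and 4.50%, so that both libraries were above both crosslinked ones. Peaks were narrower without crosslinking, with medians of 60 and 57 nt against 68 nt in both crosslinked libraries. Among the 44086 peaks with the lowest p-values of each list, the medians were 60 and 61 nt without crosslinking and 116 and 115 nt with it. That number is the whole list of replicate 1 without crosslinking but the strongest part of each crosslinked list, so the gap is not a measure of the change in width.

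The same differences were present in the other hnRNPI libraries of 50k cells. These are 2 crosslinked libraries without gel that had an added digestion with the exonuclease RecJ, 2 crosslinked libraries of low RNase (hnRNPI_50k_lowRNase) and 2 libraries without crosslinking (noUV_hnRNPI). The titles of the last 4 do not carry the word noPAGE, and they were taken to have passed the gel. Over all 10 libraries, with relabelling within the libraries without gel and within those with gel, libraries without crosslinking had a log2 peak number lower by 3.04, and a log2 number of genes lower by 0.95. Their median peak width was lower by 11.5 nt and their mitochondrial share of reads was higher by 5.56 percentage points. The exact two-sided permutation p was 0.0111 for each of the 4 values, as was the Benjamini-Hochberg adjusted p. It is the smallest p that the 90 relabellings can give. This test counts the RecJ libraries as separate crosslinked libraries, although they have no counterpart without crosslinking. Whether they share a preparation with the plain libraries is not known here. Without the RecJ libraries all 4 differences kept their direction, but none passed, with an exact permutation p of 0.0556, the smallest then possible.

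**Figure D1:**
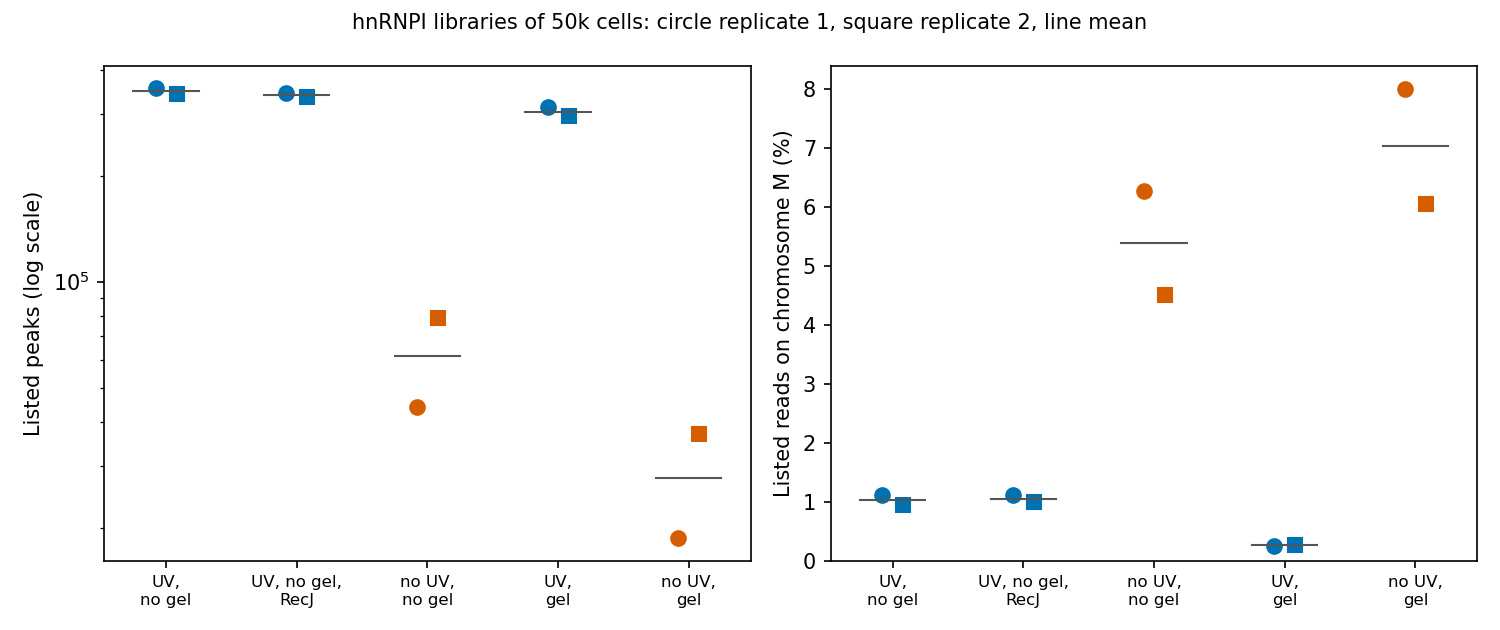
Listed peaks (left, log axis) and the percent of listed reads on the mitochondrial chromosome (right) in the 10 hnRNPI libraries of 50k cells, with 1 point per library and a line at the mean of each group. Without UV the peak numbers lie at 78945 or below and the mitochondrial shares at 4.50% or above, and with UV no mitochondrial share exceeds 1.12%.

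Of the 13210 genes listed in both crosslinked libraries, about as many were kept in both libraries without crosslinking as were not. There were 6240 genes (47.2%) listed in both libraries without crosslinking, 2631 (19.9%) in 1 of the 2, and 4339 (32.8%) in neither. Replicate 1 listed 50.4% of the 13210 genes and replicate 2 listed 64.0%, a mean of 57.2% ± 9.65 (SD, n = 2). Kept genes had a median of 316 reads with crosslinking, lost genes 42.5. From the decile of genes with the fewest crosslinked reads to the decile with the most, the share kept in both rose from 17.3% to 85.2%. A further 222 genes were listed in both libraries without crosslinking and in neither crosslinked one.

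The hnRNPI libraries with gel, which these classes did not use, sorted the same genes alike. The gel libraries without crosslinking listed 59.9% and 76.2% of the kept genes and 11.8% and 21.6% of the lost genes. The crosslinked gel libraries listed 96.2% and 96.4% of the kept genes and 87.1% and 86.1% of the lost ones. Of the 222 gained genes, the gel libraries without crosslinking listed 21.2% and 28.4%, and the crosslinked gel libraries listed 22.1% and 32.0%. The gained genes were thus about as often listed in the gel libraries with crosslinking as in those without.

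The 10 lost genes with the most crosslinked reads had between 1759 and 2956 reads in each crosslinked library and were not listed in either library without crosslinking. The first of them had its strongest cluster at chr2:185577237-185577670 on the plus strand, with 2956 and 2765 reads. In the crosslinked gel libraries this gene had 1596 and 1346 reads, and in the gel libraries without crosslinking it was not listed in replicate 1 and had 19 reads in replicate 2. The third, with its strongest cluster at chr13:35567176-35567422 on the plus strand, had 2170 and 2003 reads with crosslinking, and in the gel libraries without it no listing in replicate 1 and 15 reads in replicate 2. The strongest gained genes had fewer reads, in lists that held fewer reads in all. The gained gene with the highest share, at chr22:28091959-28092104 on the minus strand, had 233 and 215 reads without crosslinking.

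At the level of sites, most of the crosslinked list was not found without crosslinking. A site here is a stretch of overlapping peaks of both crosslinked libraries, and it was kept if a peak without crosslinking shared at least 1 nt with it on the same strand. Of 162128 sites, 9489 (5.85%) were kept in both libraries without crosslinking, 10138 (6.25%) in 1 of them, and 142501 (87.9%) in neither. Replicate 1 listed 7.40% of the sites and replicate 2 listed 10.6%, a mean of 8.98% ± 2.24 (SD, n = 2). The crosslinked RecJ libraries listed 78.8% and 78.4% of the same sites and the crosslinked gel libraries listed 63.8% and 57.0%. The gel libraries without crosslinking listed 2.35% and 3.23%. With all 4 lists cut to the 44086 peaks with the lowest p-values, the mean share kept was 23.1%.

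Kept sites were those with more crosslinked reads. The share kept in both libraries rose from 2.02% in the decile of sites with the fewest reads, where the median was 6.5 reads, to 22.8% in the decile with the most, where it was 81. Even in that upper decile, 60.0% of the sites were lost. The median site width also rose between these deciles, from 77 nt to 234 nt. A wider site more easily shares 1 nt with a peak, and read number and width were not told apart. Chromosomes with few sites were left out of a ranking by chromosome. Among the nuclear chromosomes ranked, the share kept in both was highest on chromosome 19, at 15.4% of 3772 sites. It was lowest on chromosome 13, at 3.81% of 4881 sites.

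**Figure D2:**
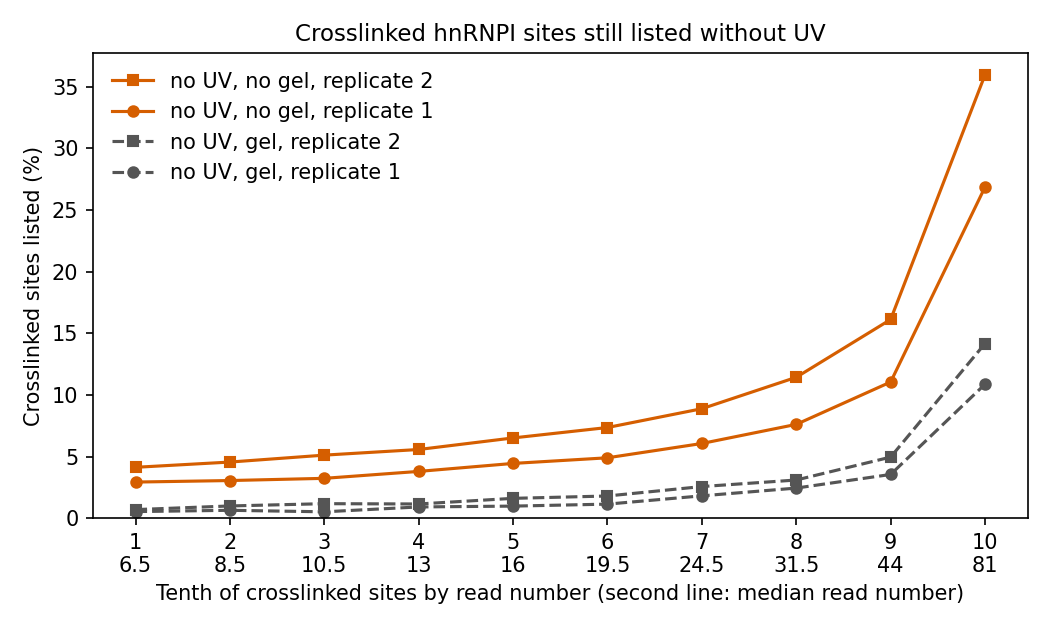
Percent of crosslinked hnRNPI sites listed in each library without UV (vertical axis), by deciles of sites ordered by their crosslinked read number (horizontal axis, with the median read number of each decile). Without gel, replicate 1 goes from 2.94% to 26.8% and replicate 2 from 4.13% to 35.9%, and the gel libraries without UV lie lower in every decile.

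The strongest kept sites named here were ranked by their reads without crosslinking, which favours high values there. The lists without crosslinking held fewer reads in all. The kept site chrX:73046601-73047820 on the minus strand, not among them, had 24383 and 24648 reads with crosslinking and 1822 and 2750 without. At the first of the ranked sites, the read numbers were of the same order in both groups. The site chr11:62609121-62609282 on the minus strand, listed under 2 gene identifiers, had 16822 and 12924 reads with crosslinking and 14706 and 16297 without. Its read numbers overlapped between the groups. On the RPM scale, the share of all reads at the sites of a library, it had 2735 and 2240 RPM with crosslinking and 15959 and 10674 RPM without, so that its share did not overlap.

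The mitochondrial site chrM:2500-2573 on the plus strand had 6728 and 3635 reads with crosslinking and 12125 and 6847 without. The site chr22:42335039-42335787 on the minus strand had 2198 and 2441 reads with crosslinking and 8867 and 10066 without. The site chr14:50329498-50329568 on the minus strand had 1187 and 537 reads with crosslinking and 5483 and 6285 without. At each of these sites, both libraries without crosslinking had more reads than both crosslinked libraries, before any scaling. At the mitochondrial site the gap was narrow, with 6847 reads in replicate 2 without crosslinking against 6728 in replicate 1 with it.

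These strong kept sites differed in how far other antibodies shared them. Without crosslinking and without gel, the chr11:62609121 site was listed in all 6 libraries of hnRNPA1, hnRNPc and RBFOX2, with 2249 to 40720 reads. The site chr11:10823015-10823153 on the minus strand had 6638 and 8736 reads for hnRNPI without crosslinking and 10851 and 11118 with it, but 51 to 75 reads in those 6 libraries. The chr22:42335039 site had 109 reads or fewer for hnRNPc without crosslinking, 10 reads or no listing for hnRNPA1, and no listing for RBFOX2.

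The strongest lost site, chrX:73041830-73041877 on the minus strand, had 1796 and 1771 reads in the crosslinked libraries and 1622 and 1620 in the RecJ libraries. It was not listed in any of the 4 hnRNPI libraries without crosslinking. The next, chr6:31797690-31797910 on the plus strand, had 513 and 486 reads with crosslinking, 320 and 227 in the crosslinked gel libraries, and again no listing in the 4 libraries without it. From rank 2 to rank 8, the lost sites had between 371 and 555 reads in each crosslinked library.

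Of the sites formed by joining the peaks of all 4 libraries, 6893 were listed in both libraries without crosslinking and in neither crosslinked one. Their median distance to the nearest crosslinked site on the same strand was 369 nt, and 75.4% lay within the span of a gene that was listed with crosslinking. RecJ libraries, which were crosslinked, listed 14.3% and 12.4% of them. The gel libraries without crosslinking listed 9.04% and 13.99%, and the crosslinked gel libraries listed 11.142% and 10.997%, which lie between those values. These sites were thus about as often listed in the gel libraries with crosslinking as in those without. The strongest was chrM:2718-2745 on the plus strand, with 2582 and 3662 reads without crosslinking. It had 625 and 686 reads in the gel libraries without crosslinking and no listing in any of the 6 crosslinked hnRNPI libraries. The sites listed around it with crosslinking, from chrM:1694 to chrM:2895 on that strand, had at least 4404 reads in replicate 1 and 3635 in replicate 2. Whether a site of its read number could be listed there with crosslinking was not tested.

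The lowest listed read number differed widely between genes, and this bears on what is listed. The settings of the peak caller are not known. At most genes the lowest listed read number was small, with a median of 6 in the decile of genes with the strongest peaks in each of the 4 libraries, but in single genes it was far higher, up to 11255 reads in replicate 1 with crosslinking. Of 6553 gained sites in genes listed in both crosslinked libraries, 70.6% had more reads in both replicates than the lowest number listed for that gene with crosslinking. Of 96775 lost sites in genes listed in both libraries without crosslinking, 88.8% exceeded the lowest number listed there. These numbers are unscaled reads of libraries with different totals.

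A pair of loci, chosen after their values were seen, show gained and lost sites side by side. At a chromosome X locus on the minus strand, sites within 2 kb of the strongest crosslinked site held 80.7% and 81.8% of the reads with crosslinking, and 39.5% and 18.9% without. Farther than 15 kb upstream of that site, 1 site was listed in each crosslinked library, against 23 and 46 sites without crosslinking. The lowest listed numbers differ between the libraries, and their effect on this count was not tested. The lowest read number listed at the locus was 709 and 614 in the crosslinked libraries and 129 and 282 in those without crosslinking. All 23 sites of replicate 1 had fewer than 614 reads, and of the 46 of replicate 2, 25 had fewer than 614 and 11 had more than 709. The gained site chrX:73066163-73066420 in that stretch had 423 and 1305 reads without crosslinking for hnRNPI, and 1084 to 1608 reads in the crosslinked libraries of hnRNPA1 and hnRNPc.

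At the chromosome 22 locus, also on the minus strand, no site more than 1 kb upstream of the strongest one was listed in the 2 crosslinked libraries, and 8 and 10 sites were listed without it. They held 33.4% and 41.7% of the locus's reads. The gained site chr22:42336621-42336706 among them had 1357 and 2600 reads. It was also listed in the crosslinked RecJ replicate 1, with 211 reads, and that library listed 2 of the 7 gained sites of the locus. Neither gel library without crosslinking listed this site. The lowest numbers listed at the locus with crosslinking were 264 and 186, below both values.

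**Figure D3:**
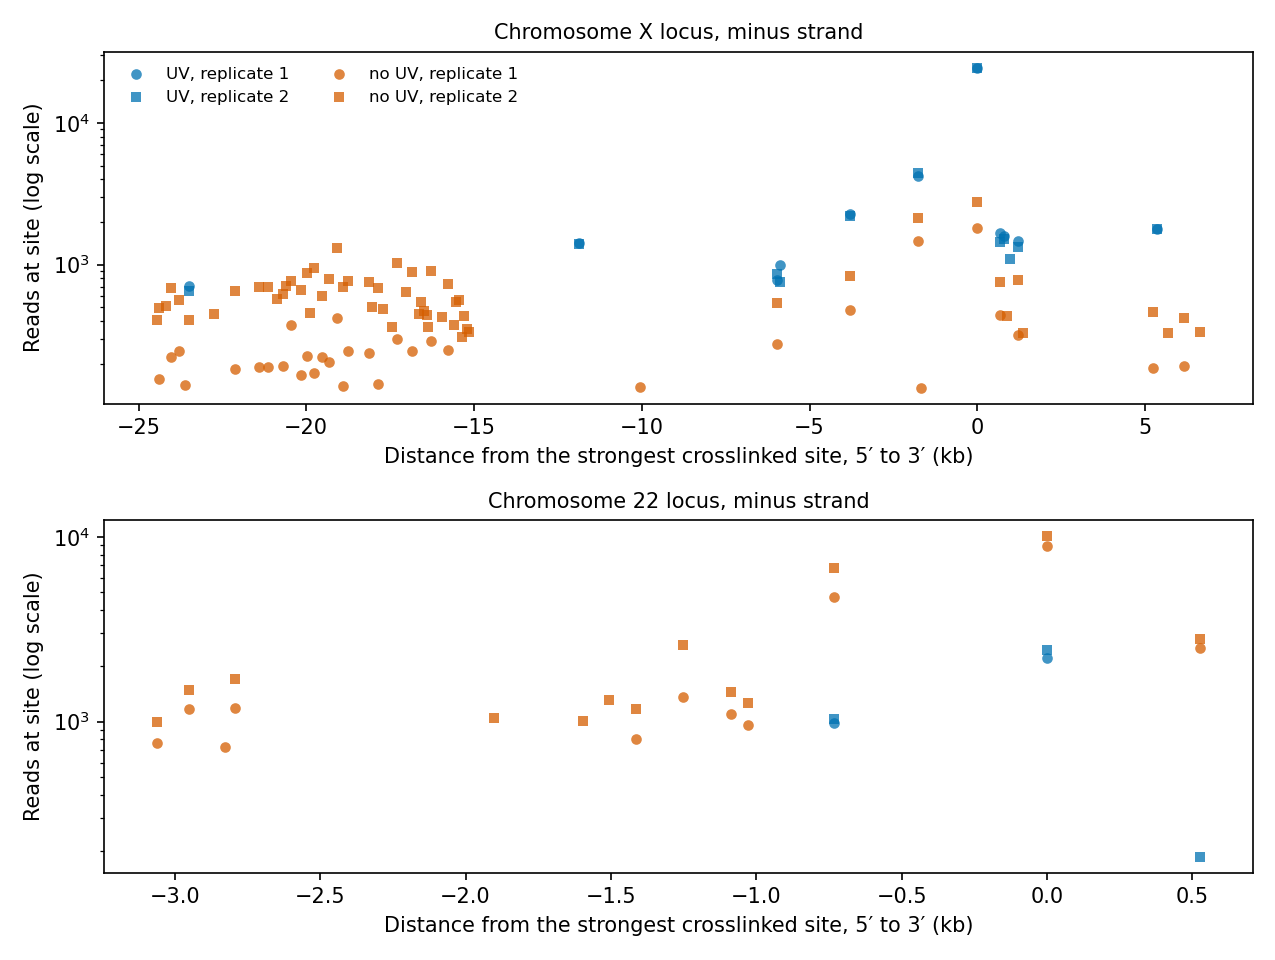
Reads at each listed site (log axis) against the distance in kb from the strongest crosslinked site, with 5′ to the left, at the chromosome X locus (top) and the chromosome 22 locus (bottom), for the 4 hnRNPI libraries. In the top panel the sites farther than 15 kb upstream are nearly all from libraries without UV (23 and 46 sites against 1 and 1). All of the 23, and 25 of the 46, lie under 614 reads, the lowest number listed at the locus with UV. In the bottom panel all sites farther than 1 kb upstream are from libraries without UV.

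Within genes, the cluster with the most listed reads was less often at the same place between the groups than between replicates. This cluster (peaks of a gene less than 30 nt apart) was compared in the 1415 genes with at least 3 clusters and at least 20 reads in the top one in all 4 libraries. It was at the same place in both crosslinked replicates for 75.1% of these genes, and in both replicates without crosslinking for 75.1%. Between a crosslinked library and one without crosslinking it was at the same place for 42.3% to 43.3% of the genes. Between crosslinked libraries with and without RecJ the value was 73.3% to 75.1%.

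The share of listed reads was then tested for each of the 6240 genes listed in all 4 libraries, with limma on log2 shares. At a Benjamini-Hochberg adjusted p below 0.05, 2086 genes (33.4% of those tested) were higher without crosslinking and 2095 (33.6%) were lower, and the median difference was -0.10 on the log2 scale. With each library centred on its median gene, 2576 were higher (41.3%) and 1681 lower (26.9%). The centred median difference was 0.50. Leaving out a library also changed which genes could be tested. Lower genes were 1377 of 6360 (21.7%) without replicate 1 and 1388 of 6384 (21.7%) without replicate 2 of the crosslinked group. They were 3770 of 8457 (44.6%) without replicate 1 of the group without crosslinking. The balance of both directions moved with the measure, with 2923 higher and 976 lower when clusters were counted in place of reads, and 1699 higher and 2616 lower when the reads of all peaks were summed. The groups did not overlap in 86.7% of the tested genes, called or not.

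The gene with the largest rise, ENSG00000196557.6, had 4 and 5 reads with crosslinking and 158 and 463 without. As RPM of the reads listed in genes, these were 0.615 and 0.817 against 152 and 277, a log2 difference of 8.18 (SE 0.40, limma adjusted p 0.00136). The crosslinked reads of ENSG00000196557.6 were at the floor of the lists, where the smallest read number was 4. The size of its rise rests on them. ENSG00000188162.6 followed, with 32 and 36 reads against 667 and 1167 and a log2 difference of 6.96 (SE 0.25, limma adjusted p 0.00136). The third and the fifth gene of this order shared their strongest cluster, chr17:10658842-10659030 on the plus strand, so they are overlapping identifiers and not separate events.

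The largest falls were in genes with many crosslinked reads and few left. ENSG00000140396.8 had 2995 and 2674 reads with crosslinking and 4 and 5 without, and its share fell by 7.04 on the log2 scale (SE 0.26, limma adjusted p 0.00136). ENSG00000068784.8 had 2485 and 2446 reads against 4 and 5, and its share fell by 6.85 (SE 0.26, limma adjusted p 0.00136). The gene with its strongest cluster at chr9:88262565-88263018 on the minus strand had 3620 and 3372 reads against 5 and 13. The smallest crosslinked value among the 10 genes with the largest falls was 1480 reads and the largest value without crosslinking was 13, so these genes stood close to the lost ones.

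By share, the genes at the head of the list without crosslinking were a mitochondrial gene, the chromosome 22 gene and the chromosome X gene. The mitochondrial gene with its strongest cluster at chrM:2500-2573 had 7434 and 6270 RPM with crosslinking and 43113 and 27133 without. The chromosome 22 gene had 598 and 686 RPM against 25857 and 24592, a log2 difference of 5.30 (SE 0.24, limma adjusted p 0.00136). The chromosome X gene had 6584 and 7130 against 10248 and 18751, a log2 difference of 1.02 that did not pass the test (SE 0.38, limma adjusted p 0.0717). All 3 genes had higher shares in both libraries without crosslinking.

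The gel libraries, which the fit did not use, gave the same directions for most called genes. They are divided by run like the fitted libraries, so a batch that follows crosslinking would bear on both. Of the 2086 genes called higher, 1232 were listed in all 4 gel libraries, and 96.0% of them had a higher mean log2 share without crosslinking there. Of the 2095 called lower, 968 were listed in all 4, and 92.6% had a lower share. Over all 3195 tested genes listed in the gel libraries the shares were 53.3% higher and 46.7% lower. ENSG00000188162.6 had 7.42 and 3.80 RPM with crosslinking and gel, against 418 and 629 without crosslinking. ENSG00000196557.6 had 8.44 and 20.3 against 70.7 and 266. ENSG00000140396.8 had 469 and 441 against 64.3 and 40.3. Before scaling, the gel reads of ENSG00000196557.6 overlapped between the groups, with 33 and 64 with crosslinking and 11 and 66 without.

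Sites listed in all 4 libraries numbered 9394 and mostly held a larger share of reads without crosslinking. Only sites that reached the lists without crosslinking entered this fit, which favours higher shares there. Those libraries held 1038810 and 1669232 listed reads, against 6507617 and 6121028 with crosslinking, so a given read number is a larger share without it. The gene fit was filtered in the same way. The median site difference was 1.91 on the log2 scale, and 0.45 with each library centred on its median site. Without replicate 1 of the group without crosslinking it was 0.91, over the 16881 sites then listed in the other 3 libraries. At a limma adjusted p below 0.05, 6472 sites (68.9%) were higher without crosslinking and 941 (10.0%) were lower. After centring, 3920 (41.7%) were higher and 2626 (28.0%) lower. Without that replicate, 7864 of 16881 sites were higher (46.6%) and 2784 lower (16.5%) in the uncentred fit. The mitochondrial genome held 41 of these sites, of which 40 were higher and none lower.

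The 10 strongest kept sites were ranked by their reads without crosslinking, so the selection favours higher shares there. All 10 were called higher on shares, and 9 of the 10 remained so after centring. The exception was chr11:10823015-10823153, whose log2 difference was 1.80 (SE 0.38, limma adjusted p 5.89e-05) and 0.34 after centring (limma adjusted p 0.358). The largest difference of the 10 was at chr14:50053297-50053392 on the plus strand, with 826 and 356 reads with crosslinking against 4235 and 5271 without, a log2 difference of 5.45 (SE 0.40, limma adjusted p 4.83e-14) and 3.99 after centring.

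The sites that fell or rose furthest while staying listed were named after their values were seen. They were ranked among called sites whose groups did not overlap, with chromosome 8 left out. The first of the falls was chrX:73491567-73492256 on the minus strand, with 660 and 550 reads with crosslinking and 8 and 6 without. Its share fell by 4.11 on the log2 scale (SE 0.40, limma adjusted p 1.94e-11). In the gel libraries it had 268 and 190 reads with crosslinking and no listing without. The site chr2:133044206-133044329 on the minus strand had 557 and 423 reads against 6 and 8, and 299 and 167 in the crosslinked gel libraries against no listing. In the other direction, the highest, chr1:223733348-223733448 on the minus strand, had 17 and 10 reads with crosslinking and 278 and 479 without, and was not listed in any of the 4 gel libraries. The second, chr1:28566847-28567043 on the minus strand, had 15 and 13 reads against 299 and 335 and was likewise not listed with gel. Of the 5 highest sites, the third, chr11:17634942-17635366 on the plus strand (7 and 5 reads against 124 and 128), was the only one listed in both gel libraries without crosslinking (14 and 12 reads) and in neither crosslinked one. The fourth and the fifth were listed in both gel libraries without crosslinking and in replicate 2 of the crosslinked ones.

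**Figure D4:**
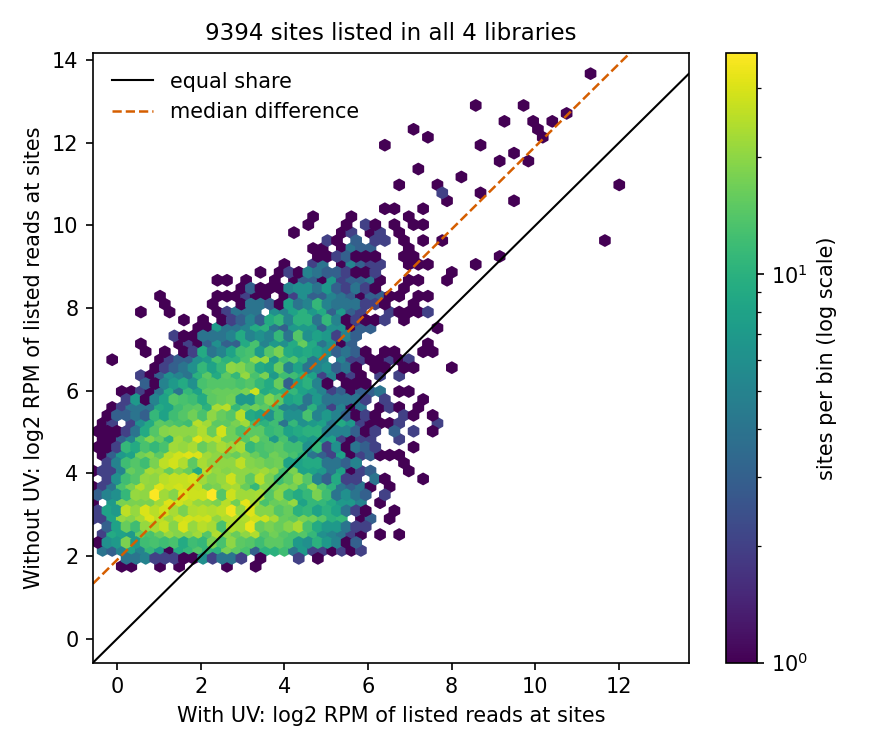
Log2 RPM (share of listed reads at sites) without UV (vertical axis) against with UV (horizontal axis), each the mean of 2 libraries, for the 9394 sites listed in all 4 hnRNPI libraries, with colour for the number of sites per bin. Most sites lie above the solid line of equal share, and the dashed line marks the median difference of 1.91, which was 0.91 without replicate 1 of the group without UV.

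Peaks of hnRNPI without crosslinking overlapped the crosslinked hnRNPI peaks more than those of the other proteins. Of the peaks of replicate 1 and replicate 2, 54.0% and 43.6% were overlapped by the joined crosslinked hnRNPI lists. The corresponding values were 29.6% and 28.2% for RBFOX2, 23.5% and 23.0% for hnRNPA1, and 22.5% and 20.5% for hnRNPc. The overlap with hnRNPI exceeded the mean of the other 3 by 28.8 and 19.7 percentage points, a mean of 24.2 ± 6.42 (SD, n = 2). The lists differ in length, and no test of this difference was run within hnRNPI. The other 3 proteins had the same pattern, so it is not particular to hnRNPI. Of their peaks without crosslinking, those on their own crosslinked peaks were 66.1% and 68.3% for hnRNPA1. The values were 57.6% and 43.3% for hnRNPc, and 58.7% and 58.1% for RBFOX2. Among the 1000 peaks with the lowest p-values of each library, 96.1% and 91.5% lay on crosslinked hnRNPI peaks. The same peaks were also more often shared with hnRNPc than the full lists, with 44.9% and 45.4% on its crosslinked peaks and 58.7% and 62.4% on its peaks without crosslinking. For hnRNPA1 the values were 33.3% and 36.4% with crosslinking, and for RBFOX2 28.9% and 31.6%.

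Over the full lists, a part of the peaks was shared with other antibodies without crosslinking. The joined hnRNPc lists without crosslinking overlapped 32.1% and 30.2% of the hnRNPI peaks, the RBFOX2 lists 24.0% and 21.4%, and the hnRNPA1 lists 22.6% and 21.8%. Of the sites kept in all 4 hnRNPI libraries, 9.84% (924 of 9394) were listed in all 6 libraries of the other antibodies without crosslinking and 48.6% (4570) in none of them. Of the gained sites, 6.38% were listed in all 6 and 49.6% in none. Of the lost sites, 0.0358% (51 of 142465) were listed in all 6 and 77.9% in none. These differences between classes of sites were not tested, nor was whether shared sites are RNA that binds beads or antibodies.

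**Figure D5:**
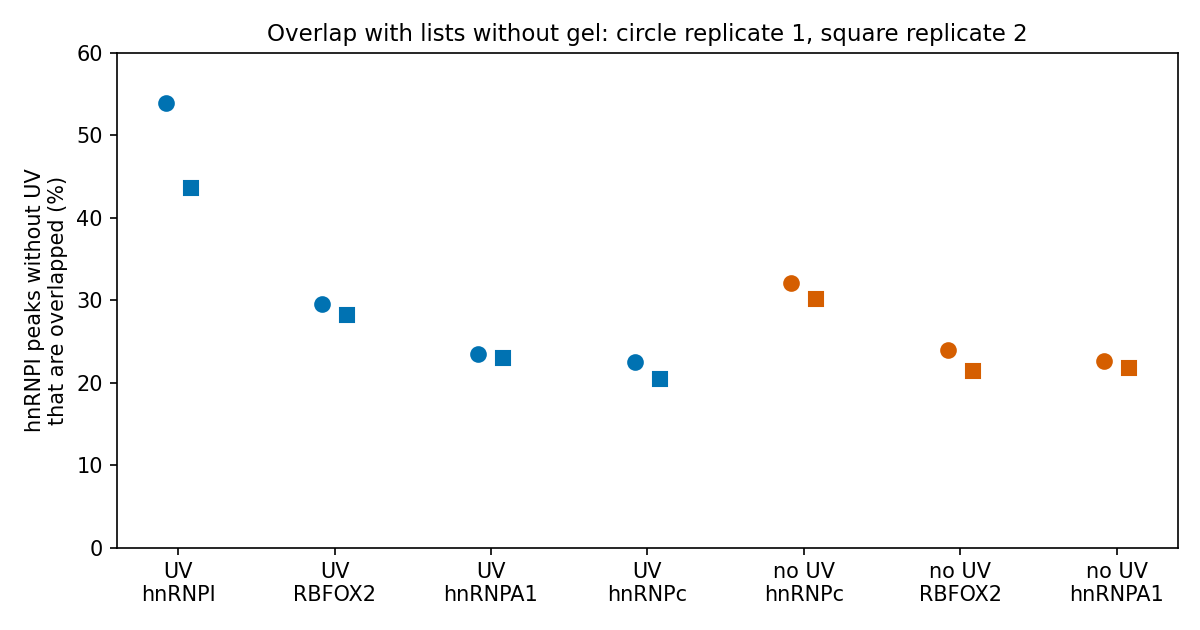
Percent of hnRNPI peaks without UV (vertical axis) that share at least 1 nt with the joined lists without gel of each protein, with UV (blue) and without UV (orange), for replicate 1 (circle) and replicate 2 (square). The crosslinked hnRNPI lists overlap 54.0% and 43.6%, and every other set stays at 32.1% or below.

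The loss of peaks was larger for hnRNPI than for the other 3 proteins in these values. The log2 peak number differed by -2.56 for hnRNPI, -1.44 for hnRNPA1, -0.997 for hnRNPc and -1.49 for RBFOX2. In a fit over all 4 proteins, the change in share of each gene in hnRNPI was compared with the mean change in the other 3, over 4291 genes listed in all 16 libraries. At a limma adjusted p below 0.05, 1255 genes (29.2%) changed more upward in hnRNPI and 1803 (42.0%) more downward. With centred libraries the numbers were 1845 (43.0%) and 1196 (27.9%). The changes also spread more widely over genes in hnRNPI, with an SD over the 4291 genes of 2.37 on the log2 scale, against 1.10 for hnRNPA1, 0.94 for hnRNPc and 1.36 for RBFOX2.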

How the data were processed

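Peak lists of 22 libraries were used, with no header and 1 list per library. Per the submitters' processing notes, the tools include STAR 2.7.3a, UMI-tools 1.0.1 and bcl2fastq and the build is hg19; the deposited file names point to CLIPper as peak caller, with settings not given in the sources used here. Each p-value is the one that the authors deposited for a peak, and no adjustment is stated. The last number of a peak name (at least 4) was taken as its reads; its meaning is not stated. Peaks of 1 gene less than 30 nt apart formed a cluster with the highest read number, and a gene's clusters were summed. Listing of 1 peak under overlapping genes was kept. Shares of listed reads were tested on the log2 scale with limma 3.58.1 (R 4.3.3), fitted over all genes or sites listed in all libraries compared, with no pseudocount, and Benjamini-Hochberg adjustment. The scripts were tested on simulated data. Other values came from Python 3.11.15.

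The members, lists and tests were chosen with earlier results of these data known. Ranked kept and gained sites are the strongest by read number without crosslinking, 1 per gene. Ranked lost sites are the strongest by read number with crosslinking, 1 per gene. Named genes are those past the test with the largest differences and no overlap, those with the highest shares without crosslinking, and the lost and gained genes with the most reads. Gene lists by symbol (planned for gene groups) could not be applied, as 0 identifiers were matched to a symbol; the mitochondrial chromosome stood in for them. No sites of chromosome 8 are named.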

Additional observations from a re-analysis of the deposited data

Results flagged for a closer look

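The effect of crosslinking differed between hnRNPI and the mean of hnRNPA1, hnRNPc and RBFOX2 for the 1255 and 1803 genes counted above (limma interaction term, adjusted p below 0.05). By the position of the strongest cluster, the 5 largest upward differences on the log2 scale were 6.62 at chr16:1223779-1223901, 5.83 at chr7:5516291-5516395, 5.78 at chr19:1925541-1925714, 5.69 at chr19:19280735-19281011 and 5.63 at chr7:2703333-2703456. At the first of these the change was 8.18 in hnRNPI, 1.86 in hnRNPA1, 1.18 in hnRNPc and 1.63 in RBFOX2. That gene had only 4 and 5 reads in the crosslinked hnRNPI libraries. The 5 largest downward differences were -6.27 at chr9:102901595-102901866, -6.00 at chr6:119319531-119319831, -5.81 at chr2:45755705-45756019, -5.71 for ENSG00000140396.8 and -5.66 at chr13:73427500-73427793. At the chromosome 9 gene the change was -6.37 in hnRNPI and between -0.26 and 0.09 in the other proteins.

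Median peak width without crosslinking was lower in both hnRNPI libraries (60 and 57 nt against 68 and 68 nt) and higher in both hnRNPA1 libraries (65 and 64 nt against 62 and 61 nt). The changes differed by -12.5 nt, and this difference was not tested. The narrowing was not seen in hnRNPI alone, since RBFOX2 had 50 and 51 nt against 59 and 59 nt, while hnRNPc had 60 and 54 nt against 57 and 58 nt.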

How the results depend on the processing

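Leaving out the RecJ libraries gave differences of -3.05 (log2 peaks), -0.96 (log2 genes), -11.8 nt and 5.57 percentage points, each with an exact permutation p of 0.0556, the smallest that design allows. The mean share of sites kept, 8.98%, became 23.1% with lists of equal length, 4.78% with at least 50% of the site covered, and 5.90% to 10.6% with 1 library left out. The mean share of genes kept, 57.2%, became 40.2% with a deposited p below 1e-05. The excess overlap with crosslinked hnRNPI, 24.2 percentage points, became 35.9 with a deposited p below 1e-05, 15.3 with lists of equal length, and 16.5 to 28.8 with 1 library left out. Genes called higher and lower, 2086 and 2095 of 6240, became 2923 and 976 when clusters were counted, 2252 and 6222 of 13953 with genes listed in at least 2 libraries and a pseudocount of 1, and 1450 (42.3%) and 1027 (30.0%) of 3428 with a deposited p below 1e-05. With 1 library left out they ranged from 1494 to 2663 and from 1377 to 3770, over 6360 to 8457 genes. Sites called higher were 3920 and lower 2626 after centring; with 1 library left out they ranged from 7363 to 7864 and from 683 to 2784, over 10925 to 16881 sites (46.6% to 68.0% higher). Interaction calls downward were 1196 after centring, fewer than the 1845 upward, so that the larger side turned. With the replicate number as a replicate block, 1960 genes were higher and 2018 lower, 6471 sites higher and 941 lower, and 1242 and 1790 genes passed the interaction; the numbers did not pair the libraries (correlation of replicate differences 0.0738 for genes and 0.0169 for sites). Apart from these balances of higher and lower calls and the median gene difference, no difference changed direction under the alternatives run. Depth is unknown, so whether a site not listed was absent or too shallow was not tested.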
